A study of Rattus norvegicus with 6 samples.

Results

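The 40 genes described here encode the COPII and COPI vesicle coats and the proteins that these vesicles carry between the endoplasmic reticulum (ER) and the Golgi. Members were taken by gene name from the deposited table, which held 39 of the 40 names. All 39 passed the minimum set for members, a mean over the 6 lines of at least 5 normalized counts. Copb2, a COPI coat subunit, was not found under that name and was not analysed here. In the whole table, 15579 of 32900 features passed the same minimum.

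Total RNA depleted of rRNA was sequenced from 3 control and 3 PWS INS-1 lines grown in 7.5 mM glucose, with 1 library per line. INS-1(832/13)::mCherry is a rat insulinoma line that carries a human INS-neoR transgene and a mouse Ins2 C-peptide-mCherry transgene, and every line in both groups carries a deletion of the Prader-Willi syndrome (PWS) domain on the silent maternal allele. The control lines (5-9, 2 and 16) keep the active paternal allele, whereas the PWS lines (3, 19-1 and 19-4) have lost it too. The PWS lines do not share 1 genotype. The paternal deletion of line 3 has another proximal breakpoint, is larger and holds inserted bacterial DNA. Lines 19-1 and 19-4 carry a short deletion at the site where the deletion of line 3 begins. The other lines descend from line 5-9, and because 19-1 and 19-4 were subcloned from one line (19), the PWS group represents 2 clones. Nothing in the labels gives repeated cultures of a line, so p-values measure the spread between these 6 libraries. Snurf, a gene of the deleted domain, had 3160 to 3992 normalized counts in the control lines and 0 to 3.64 in the PWS lines. Counts summed to 32119377 to 36084261 in the control lines and to 26016478 to 33888835 in the PWS lines, where a read can be counted more than once. Without such reads (nonunique none counting) the sums were 20861821 to 23022637 and 17530149 to 22984228. PWS line 19-1 was the shallowest both ways. All 16 β-cell markers checked passed the minimum of 5 normalized counts. Their sum was 656749 to 724547 normalized counts in the control lines and 377076 to 632265 in the PWS lines. Without Ins1 and Iapp, which hold most of it, the other 14 markers summed to 195172 to 201832 in the control lines and to 203766, 199449 and 145836 in PWS lines 3, 19-1 and 19-4, so that the groups overlapped and line 19-4 alone was low. The part of these sums in the values below was not tested. Of 12 markers of other cells, 11 were in the table and 3 of these (Sst, Prss1 and Ptprc) had no read in any line. Their sum was 38.6 to 52.2 normalized counts in the control lines and 45.4 to 134 in the PWS lines, the highest value being Gcg in PWS line 19-4 (100). Their part in the values below was not tested. In bulk libraries, fewer cells of a type and less RNA per cell cannot be told apart.

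COPII coats form at ER exit sites when the guanine exchange factor PREB loads GTP onto SAR1, which recruits the SEC23-SEC24 inner layer and then the SEC13-SEC31 outer layer. SEC24 binds cargo, and its paralogues differ in the cargo they select. COPI coats, recruited by ARF1 after activation by GBF1, return escaped ER proteins and cargo receptors from the Golgi, and KDEL receptors catch soluble ER chaperones for this return. In β-cells, proinsulin leaves the ER by this route before it reaches the Golgi and the secretory granule.

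No member differed between the groups beyond the threshold. At an adjusted p-value of 0.05, limma called none of the 39 (0.257% of all tested genes were called), nor did edgeR (0.205%) or DESeq2 (1.46%), and limma called none at 0.1 (0.282%). At 0.1, DESeq2 called 1 member, Sec24a (2.37% of all tested genes). Without adjustment, 5 of the 39 had a p-value under 0.05 in limma, against 11.3% of all tested genes, with 4 of them lower (5.35% of all genes) and 1 higher (6% of all genes). The same unadjusted count was 4 in edgeR (11.4% of all genes) and 5 in DESeq2 (10.4% of all genes). The lower genes were Sec23b, Tmed9, Lman2 and Kdelr3, and the higher gene was Sec24a. On average 33 of the 39 were lower in the PWS lines, where 50.7% of all tested genes were lower, and the median log2 fold change was -0.07 against -0.0028 over all tested genes. Both this median and the count of 5 moved with single lines. Without line 3, the median log2 fold change of the members was -0.12 with 8 unadjusted p-values under 0.05 in limma. Without line 19-1 it was -0.05 with 1, without control line 2 -0.13 with 9, and without control line 16 -0.05 with 2. With the subclones 19-1 and 19-4 averaged, the median was -0.06 with 2 such p-values. Single genes moved likewise: leaving out 1 line changed the log2 fold change of 32 of the 39 members by over 1.5 times and the sign of 8 of these (Sar1b, Arcn1, Gbf1, Tmed2, Tmed3, Tmed5, Kdelr1 and Kdelr2). The 7 that stayed within 1.5 times were Sec23b, Sec24a, Arf1, Tmed4, Tmed9, Lman2 and Sec22b. The groups did not overlap for 7 members, against 17.4% of all genes. Of these, 6 were lower (9.01% of all genes): Sec23b, Sar1a, Copz1, Tmed4, Lman2 and Kdelr3. The remaining one, Sec24a, lay above the control lines throughout (8.43% of all genes did). The counts of 5 and 7 members in either direction were thus near the shares over all genes. With nonunique none counting 5 members had groups apart, Sec23b and Sar1a overlapping (16.0% of all genes were apart). With RSEM 3 did, namely Sec23b, Sec24a and Lman2 (15.9%).

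The differences were measured with 95% intervals whose reach on either side of the estimate, on the log2 scale, ran from 0.14 for Tmed4 to 0.73 for Sec31b, with a median of 0.19. For 34 of the 39 members the interval lay wholly between -0.5 and 0.5, and for 37 between -1 and 1, the exceptions to the latter being Sec31b and Kdelr3. A change of 1 log2 unit in either direction thus lay outside the interval of 37 members. Every library had at least 40 reads for each member, the fewest being for Sec31b in PWS line 19-4.

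**Figure D1:**
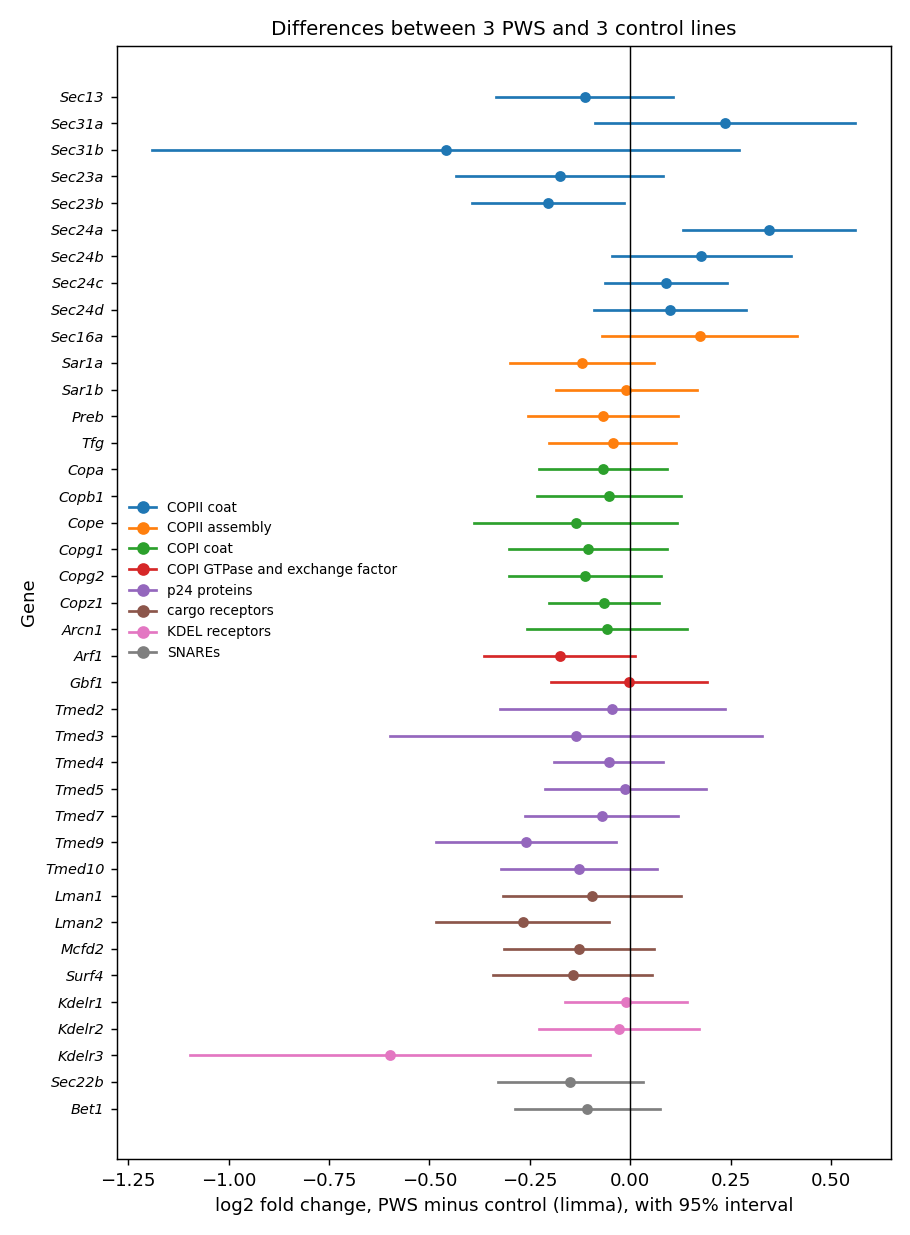
Log2 fold change of the 39 members (x axis, PWS minus control on log2(normalized count + 1), limma) by gene (y axis), coloured by role. Points are estimates from 3 PWS and 3 control lines and bars are 95% intervals, which reach 0 for all but Sec23b, Sec24a, Tmed9, Lman2 and Kdelr3.

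Among the 9 genes of the COPII coat, 4 were lower and 5 higher on average (median log2 fold change 0.09). The 4 Sec24 paralogues and Sec31a were the 5 higher genes, while Sec13, Sec31b and both Sec23 genes were the lower ones. None of these directions passed the adjusted threshold.

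Sec24a (ENSRNOG00000004563), a cargo-binding subunit of the inner coat, had 1712, 1716 and 2045 normalized counts in the control lines 5-9, 2 and 16, and 2158, 2500 and 2284 in the PWS lines 3, 19-1 and 19-4. All PWS lines lay above all control lines, and the gap between line 16 and line 3 was smaller than the spread within each group. Means were 1824 ± 191 (SD, n = 3) and 2314 ± 173 (SD, n = 3). The log2 fold change was 0.35 (standard error 0.09, 95% interval 0.13 to 0.56), with a p-value of 0.00581 in limma before and 0.283 after adjustment. DESeq2, run here on the recovered reads, gave an adjusted p of 0.0873. That is under 0.1, the cutoff that the study used (2.37% of all tested genes were under it in the same run). The study's own p-value for Sec24a was not used. Only 55.0% of the reads of Sec24a were unique to it. With these reads alone (nonunique none counting) the values were 955, 970 and 1114 in the control lines and 1217, 1310 and 1254 in the PWS lines, again with no overlap, and the log2 fold change was 0.32 (limma adjusted p = 0.278).

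The other Sec24 paralogues had smaller log2 fold changes. Sec24b had 654 to 759 normalized counts in the control lines and 741 to 884 in the PWS lines (log2 fold change 0.18, 95% interval -0.05 to 0.40, and 0.11 without line 19-1 or without control line 5-9). For Sec24c, close in sequence to Sec24d, the ranges were 3667 to 3954 and 3932 to 4293 (log2 fold change 0.09, 95% interval -0.06 to 0.24). Sec24d had 6202 to 7214 normalized counts in the control lines and 6609 to 7462 in the PWS lines (log2 fold change 0.10, 95% interval -0.09 to 0.29), and the value was 0.04 without control line 2, 0.15 without control line 16 and 0.16 without line 19-4. The groups overlapped for all 3. As a share of the reads of the 4 paralogues, Sec24a made up 13.9% ± 0.651 (SD, n = 3) in the control lines and 16.1% ± 1.17 (SD, n = 3) in the PWS lines, with 14.7% both in control line 16 and in PWS line 3.

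SEC23 is the inner-coat subunit that makes SAR1 hydrolyse its GTP. Sec23b (ENSRNOG00000008411) had 6994, 6735 and 7641 normalized counts in the control lines 5-9, 2 and 16 and 6725, 6088 and 5744 in the PWS lines 3, 19-1 and 19-4. The highest PWS line was only just below the lowest control line, and was above it with nonunique none counting. Its log2 fold change was -0.20 (standard error 0.08, 95% interval -0.39 to -0.02, limma adjusted p = 0.419). Sec23a had 416 to 448 normalized counts in the control lines and 438, 342 and 377 in the PWS lines, so that line 3 fell within the control range and both subclones of line 19 lay below it (log2 fold change -0.18, 95% interval -0.43 to 0.08, with -0.09 without line 19-1 and -0.27 without line 3).

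In the outer coat, Sec31a (ENSRNOG00000002251) had 1139, 1304 and 1484 normalized counts in the control lines and 1477, 1857 and 1315 in the PWS lines, with overlapping groups. PWS line 19-1 was the highest of the 6. The log2 fold change of 0.24 (standard error 0.14, limma adjusted p = 0.569) was 0.10 without line 19-1. Its paralogue Sec31b, with 57.0, 97.3 and 85.2 normalized counts in the control lines and 80.7, 61.0 and 36.4 in the PWS lines, had the widest interval of all members (log2 fold change -0.46, standard error 0.32, 95% interval -1.19 to 0.27, limma adjusted p = 0.631), and the value was -0.15 without line 19-4 and -0.71 without line 3. Sec13, the partner of SEC31, had 2604 to 3130 and 2472 to 2962 normalized counts (log2 fold change -0.11, 95% interval -0.33 to 0.11). Leaving out 1 line moved the Sec13 value between -0.05 without line 19-1 and -0.19 without control line 2, with -0.18 without line 3 and -0.06 without control line 16.

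**Figure D2:**
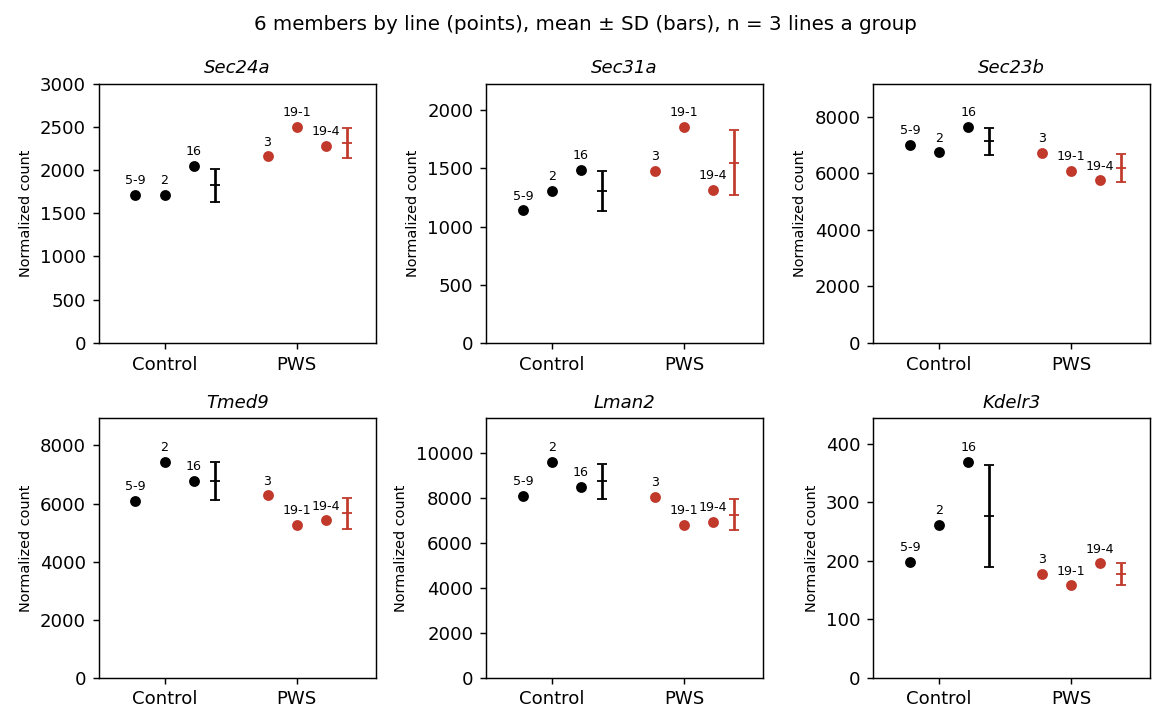
Normalized counts (y axes, from 0) of Sec24a, Sec31a, Sec23b, Tmed9, Lman2 and Kdelr3 in each control (black) and PWS (red) line, labelled by line, with the mean ± SD of 3 lines beside the points. Groups overlap for Sec31a and Tmed9 and lie apart for the other 4 genes, narrowly for Sec23b, Lman2 and Kdelr3.

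The 5 genes of COPII assembly had a median log2 fold change of -0.04, and none had an unadjusted p-value under 0.05. Sec16a, the scaffold of ER exit sites, was the one with a positive value, at 2577 to 3092 normalized counts in the control lines and 2798 to 3580 in the PWS lines (log2 fold change 0.17, standard error 0.11, limma adjusted p = 0.577). It was highest in line 19-1, and the value was 0.08 without that line. Sar1a, the main switch GTPase of the coat along with Sar1b, had 8611, 8432 and 8573 normalized counts in the control lines and 8384, 7096 and 8161 in the PWS lines. These groups lay apart by less than the spread among PWS lines, and overlapped with nonunique none and RSEM counting (log2 fold change -0.12, 95% interval -0.30 to 0.06, limma adjusted p = 0.605). Without line 19-1 the value was -0.05. The other 3 genes had overlapping groups: Sar1b had a log2 fold change of -0.01, Preb, the exchange factor for SAR1, -0.07, and Tfg, which organises the space between ER exit sites and the Golgi, -0.04. Of the Tfg reads, 69.1% were unique to it.

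All 7 COPI coat genes analysed were lower on average in the PWS lines, from -0.14 for Cope to -0.05 for Copb1 on the log2 scale, with a median of -0.07. All 7 values moved by over 1.5 times with single lines, for example Cope to -0.25 without line 3 and -0.07 without line 19-1, and Copa to -0.03 without control line 16, -0.04 without line 19-4 and -0.11 without line 3. None had an unadjusted p-value under 0.05. Copa, the large α subunit, had 8883, 8715 and 9437 normalized counts in the control lines and 9049, 8537 and 8211 in the PWS lines, and line 3 lay within the control range (log2 fold change -0.07, 95% interval -0.23 to 0.09). Cope, the ε subunit, had 2592 to 3002 in the control lines, and again line 3 (2966) was within that range while lines 19-1 and 19-4 (2282 and 2350) were below it. Copz1, the ζ subunit, was the one COPI gene whose groups did not overlap (they did with RSEM), at 3921 to 4042 against 3667 to 3875 normalized counts (log2 fold change -0.07, 95% interval -0.20 to 0.07, limma adjusted p = 0.725). Copg1 and Copg2, paralogous γ subunits, both had a log2 fold change of -0.11, and Arcn1, the δ subunit, -0.06. The coat sum over the 7 genes was 38917 ± 2228 (SD, n = 3) normalized counts in the control lines and 36928 ± 1855 (SD, n = 3) in the PWS lines, a difference of -5.11% that was smaller than either group's range.

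Arf1, the GTPase that recruits the COPI coat, had 9458, 8590 and 9717 normalized counts in the control lines and 8927, 7817 and 7848 in the PWS lines. Line 3 overlapped with the control lines and the subclones of line 19 did not (log2 fold change -0.18, 95% interval -0.36 to 0.01, limma adjusted p = 0.467). Gbf1, its exchange factor at the early Golgi, had 6539 to 6825 and 5876 to 7130 normalized counts, means of 6638 ± 162 and 6644 ± 673 (SD, n = 3 each), and an interval from -0.20 to 0.19 on the log2 scale.

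The p24 proteins are transmembrane partners of both coats that help to select cargo. Each of the 7 had a negative log2 fold change (median -0.07), and 1 of the 7 had an unadjusted p-value under 0.05 (11.3% of all genes). This was Tmed9 (ENSRNOG00000021882), at 6104, 7445 and 6784 normalized counts in the control lines 5-9, 2 and 16 and 6283, 5269 and 5420 in the PWS lines 3, 19-1 and 19-4. Line 3 was above control line 5-9, so the groups overlapped. The log2 fold change was -0.26 (standard error 0.10, 95% interval -0.48 to -0.04, limma adjusted p = 0.387). Tmed2 had 23220 to 25691 normalized counts in the control lines and 22849, 20431 and 28531 in the PWS lines, so that line 19-4 was the highest and line 19-1 the lowest of the 6, although both are subclones of line 19. For Tmed3 the control lines alone spanned 2314 to 4406, and the 3 PWS lines (2738 to 3245) fell inside that span. Tmed4 varied least, at 2513 to 2564 in the control lines and 2400 to 2494 in the PWS lines, without overlap except with RSEM (log2 fold change -0.05, 95% interval -0.19 to 0.08, limma adjusted p = 0.782). Tmed5, Tmed7 and Tmed10 had log2 fold changes of -0.01, -0.07 and -0.13 with overlapping groups.

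The 4 cargo receptors had a median log2 fold change of -0.14, and all were lower on average. Lman2 (ENSRNOG00000016161), the lectin VIP36 that cycles between ER and Golgi, had 8116, 9634 and 8498 normalized counts in the control lines and 8050, 6825 and 6929 in the PWS lines. The groups lay apart, with line 3 just under line 5-9. Its log2 fold change was -0.27 (standard error 0.09, 95% interval -0.48 to -0.05), with a p-value of 0.0204 in limma before and 0.363 after adjustment, and DESeq2 gave an adjusted p of 0.229. LMAN1 and MCFD2 form the receptor that carries coagulation factors V and VIII. Lman1 had 5945 to 7392 and 5717 to 6696 normalized counts (log2 fold change -0.10, 95% interval -0.32 to 0.13, with -0.02 without control line 16, -0.04 without line 19-4, -0.15 without line 3 and -0.18 without control line 2), and Mcfd2 had 3962 to 4802 and 3868 to 4133 (-0.13, 95% interval -0.32 to 0.06). Surf4, a receptor for many soluble secreted proteins, had 12644 to 14841 normalized counts in the control lines and 11844 to 13462 in the PWS lines (-0.14, 95% interval -0.34 to 0.06). Reads unique to the gene were 18.5% for Surf4, 49.6% for Mcfd2 and 80.8% for Lman1, and with unique reads alone the log2 fold changes were -0.17, -0.11 and -0.11.

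The KDEL receptors bind the KDEL signal of ER chaperones in the Golgi and bring them back in COPI vesicles. Kdelr1 had 3298, 3082 and 3402 normalized counts in the control lines and 3345, 3154 and 3204 in the PWS lines, with all 3 PWS lines inside the control range (log2 fold change -0.01, 95% interval -0.16 to 0.14). Kdelr2 had 6109 to 6983 and 5821 to 6984 (log2 fold change -0.03, 95% interval -0.23 to 0.17). Kdelr3 (ENSRNOG00000013577) had the lowest log2 fold change of all members, at 197, 262 and 370 normalized counts in the control lines 5-9, 2 and 16 and 178, 158 and 195 in the PWS lines 3, 19-1 and 19-4. The groups lay apart by less than 3 normalized counts, between lines 19-4 and 5-9, and overlapped with RSEM counting (149 in line 19-4 and 145 in line 5-9), while the control lines differed among themselves more than the group means did. The log2 fold change was -0.60 (standard error 0.22, 95% interval -1.10 to -0.10), with a p-value of 0.0242 in limma before and 0.373 after adjustment. It was -0.36 without control line 16, the highest, and -0.82 without control line 5-9.

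Both SNAREs of ER-Golgi fusion had overlapping groups. Sec22b had 3864 to 4268 normalized counts in the control lines and 3488 to 4039 in the PWS lines (log2 fold change -0.15, 95% interval -0.33 to 0.03), and Bet1 had 1548 to 1821 and 1521 to 1564 (-0.11, 95% interval -0.29 to 0.07).

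The balance between paralogues and partners was compared as the log2 ratio of 2 genes in each line, for 10 pairs, by an exact two-sided permutation test over lines, which with 3 lines against 3 cannot go below 0.1. The groups did not overlap for 3 pairs, and each of these reached the smallest p (exact permutation test, p = 0.1, 0.333 after adjustment over the 10 pairs). Each of the 3 has Sec24a or Kdelr3 as its first gene, and the groups of both genes already lay apart. These ratios thus largely restate those genes and are no separate support. The share of such ratios among other gene pairs was not computed. Sec24a relative to Sec24d was 0.256, 0.277 and 0.284 in the control lines 5-9, 2 and 16 and 0.290, 0.335 and 0.346 in the PWS lines 3, 19-1 and 19-4, a 1.19-fold difference. Sec24a relative to Sec24b was 2.26 to 2.78 in the control lines and 2.83 to 2.91 in the PWS lines, and the log2 difference of 0.17 was 0.08 without control line 2. Kdelr3 relative to Kdelr2 was 0.0310, 0.0430 and 0.0531 in the control lines and 0.0282, 0.0273 and 0.0281 in the PWS lines, so that the PWS lines were nearly equal while the control lines varied. Its log2 difference was -0.57, and -0.39 without control line 16. These ratios compare lines and not the levels of the 2 genes, since transcript length was not taken into account. For the other 7 pairs the groups overlapped (exact permutation test, p = 0.3 to 1): Sec23a to Sec23b, Sec24c to Sec24d, Sec31a to Sec13, Sar1a to Sar1b, Copg1 to Copg2, Kdelr1 to Kdelr2 and Lman1 to Mcfd2.

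**Figure D3:**
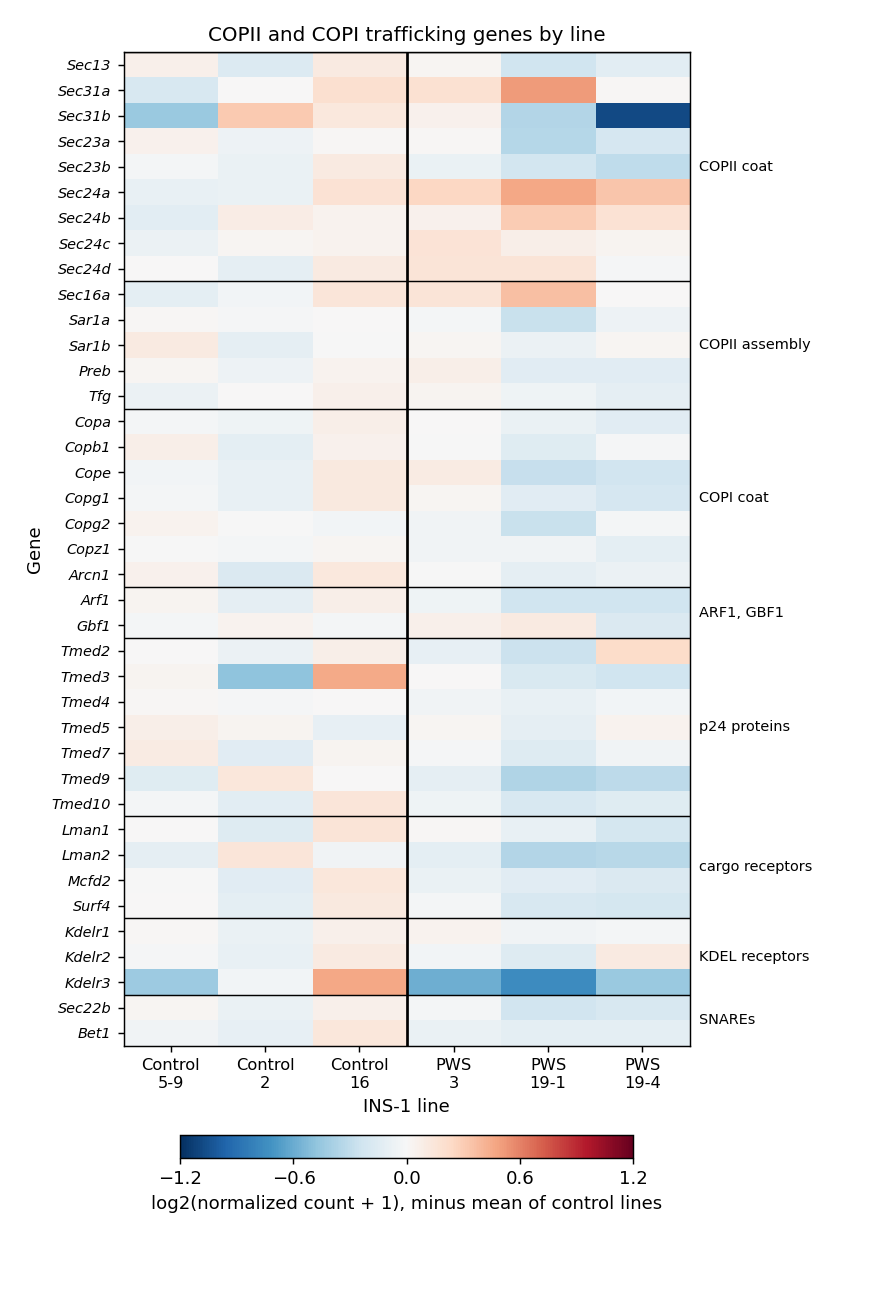
Heat map of log2(normalized count + 1) minus the mean of the control lines (colour) for the 39 members (rows, grouped by role) in the 6 lines (columns). Lines 19-1 and 19-4 are mostly blue outside the Sec24 genes, line 3 is close to the control lines, and control line 16 is mostly red.

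The lines differed within both groups, with an SD of the medians over members of 0.08 in the control lines and in the PWS lines alike. The median member lay 0.01 above the mean of the control lines on the log2 scale in PWS line 3, and at -0.14 in line 19-1 and -0.12 in line 19-4, while the control lines 5-9, 2 and 16 lay at -0.00, -0.08 and 0.07. Line 3 was below the lowest control line for 8 members (20.5%), against 24 (61.5%) in line 19-1 and 22 (56.4%) in line 19-4. Over all tested genes, the shares were 23.4%, 30.1% and 29.9%. Line 3 was above both subclones of line 19 for 25 of the 39 members and below both for 2. Over all tested genes it was above both for 30.4% and below both for 31.0%. Line 19-1, the library with the fewest reads, was the lowest of the 6 lines for 19 members (48.7%, against 19.2% of all genes) and line 19-4 for 10 (25.6%, against 20.3%). Control line 16 was the highest for 18 (46.2%, against 14.6%). The parts of depth and of the different paternal deletions of line 3 and line 19 in these counts were not tested.

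**Figure D4:**
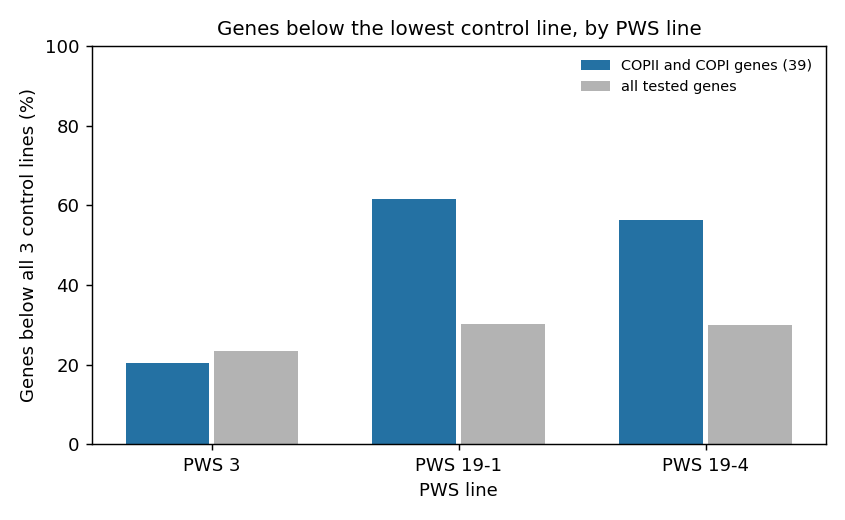
Share of genes (y axis, percent) with a normalized count below all 3 control lines in each PWS line (x axis), for the 39 members (blue) and all 15579 tested genes (grey). The share of members is 20.5% in line 3, 61.5% in line 19-1 and 56.4% in line 19-4, and that of all genes is between 23.4% and 30.1%.

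Several trafficking genes are known targets of the unfolded protein response and of CREB3-type factors, which bind TGACGTG-type sites, so the promoters of the members were searched for such letters. RefSeq promoters (GRCr8, from 250 bases before to 50 after the gene start) matched 34 of the 39 members by symbol. TGACGTGG, searched on both strands, was found in 6 of the 34 promoters (17.6%), against 0.896% of the 9817 tested genes with a promoter sequence and 0.595% of all 33469 promoters of the same length. The matches are given here with 10 bases on either side, 5′ to 3′ on the strand of the gene, with TGACGTGG or its reverse complement CCACGTCA in capitals.
Sec23a (chr6:82440978-82441005, minus strand): tcctcccattTGACGTGGcagaggcggc
Copa (chr13:87078888-87078915, plus strand): ctggggtagcTGACGTGGagcctttggg
Copb1 (chr1:177872829-177872856, minus strand): ccgcctccttCCACGTCAgccaaggact
Arf1 (chr10:44514007-44514034, minus strand): cggcaggcgcTGACGTGGctgccgtcag
Gbf1 (chr1:254960007-254960034, plus strand): aggctagttaCCACGTCAgtgagctgac
Kdelr3 (chr7:112959521-112959548, plus strand): agccgccccgCCACGTCAccgcgcggcc

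Counted from the gene start, the match began at -91 in Sec23a, -30 in Arf1, -48 in Gbf1 and -101 in Kdelr3, spanned the start in Copb1, and covered bases 31 to 38 of the transcript in Copa. The log2 fold changes of the 6 genes ran from -0.60 for Kdelr3 to nearly 0 for Gbf1, with a median of -0.12, and the 28 members with a promoter lacking the motif had a median of -0.08. Over the 88 tested genes with TGACGTGG in the promoter the median was -0.06, with 64.8% lower, and over all 9817 tested genes with a promoter sequence it was -0.0091, with 52.5% lower. The motifs were chosen after values were seen, and whether TGACGTGG has a part in these values was not tested. Neither the ER stress response element (ERSE, in 0.0657% of all promoters), whose CCACG end is shared with CCACGTCA, nor its variant ERSE-II (0.0508%) was found in a member. TGACGTCA, the cAMP response element, was found in 1 (2.94%, against 1.83%), and CCAAT alone, which is the other end of ERSE, in 14 (41.2%, against 37.5%). For Kdelr3, the member with the lowest log2 fold change, the 250 bases before the start are shown, with the same motif in capitals.
Kdelr3 upstream region (chr7:112959382-112959631, GRCr8, plus strand): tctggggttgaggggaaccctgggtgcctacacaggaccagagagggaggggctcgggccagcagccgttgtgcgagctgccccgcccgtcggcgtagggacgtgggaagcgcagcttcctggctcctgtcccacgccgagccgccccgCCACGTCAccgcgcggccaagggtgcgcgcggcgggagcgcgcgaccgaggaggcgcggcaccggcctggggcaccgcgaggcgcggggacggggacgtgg

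Of a list of 75 further genes of ER-Golgi transport, 70 passed the minimum, 50 were lower (71.4%, against 50.7% of all genes) and 20 higher on average, and the median log2 fold change was -0.07, which was -0.03 without control line 16 and -0.10 without PWS line 3. limma, edgeR and DESeq2 each called none at an adjusted p-value of 0.05, and 6 had an unadjusted p-value under 0.05 in limma, 4 of them lower and 2 higher, where the shares over all genes were 11.3%, 5.35% and 6%. edgeR gave 5 such genes (11.4% of all genes) and DESeq2 5 (10.4%). The groups did not overlap for 12 of the 70 (17.4% of all genes), with 8 lower (9.01%) and 4 higher (8.43%). The counts of genes under 0.05 and of groups apart are near or below the shares over all genes and are no result about the list, so the genes are named as values only. The 4 lower genes were Use1, a SNARE of Golgi-to-ER transport (log2 fold change -0.32, and -0.18 without line 19-4), Creb3, a Golgi-activated transcription factor (-0.24), Trappc1, a subunit of the TRAPP tether (-0.22), and Arf5, a GTPase related to ARF1 (-0.16). Creb3 had 1810, 2101 and 1900 normalized counts in the control lines and 1732, 1594 and 1581 in the PWS lines. The 2 higher genes were Atf6, a sensor of the unfolded protein response, at 1406, 1522 and 1455 normalized counts in the control lines and 1617, 1749 and 1644 in the PWS lines (log2 fold change 0.19, standard error 0.07, limma adjusted p = 0.369), and Tmed6, another p24 gene. Tmed6 had only 3.67 to 6.16 normalized counts in the control lines and 11.2 to 11.96 in the PWS lines, and its log2 fold change of 1.06 (standard error 0.34, limma adjusted p = 0.333) rests on few reads per library. By role, the median was -0.10 for the 18 tethers, Rab GTPases and TRAPP subunits, -0.10 for the 12 genes of the intermediate compartment and Golgi structure, -0.08 for the 12 SNAREs, -0.05 for the 10 genes of the ARF cycle, -0.03 for the 9 genes of ER exit, 0.02 for the 4 other p24 proteins and lectins, and -0.08 for the 5 transcription factors. The log2 fold changes of these 5 factors ran from -0.33 to 0.34, with 3 lower and 2 higher. The highest was Creb3l2, known as an activator of Sec23a in chondrocytes, at 0.34 (limma adjusted p = 0.469) with overlapping groups.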

How the data were processed

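Per the labels and the study's methods, the authors trimmed 75-bp paired-end stranded reads with cutadapt, aligned them with STAR 2.7.0e to the Ensembl rat genome with transgenes and custom features added, and counted genes with HTSeq 0.11.2 (nonunique all or nonunique none) or RSEM 1.3.1. With nonunique all, a read with several alignments, or over several overlapping genes, is counted at each. The deposited signal of each line is the count over the DESeq2 size factor of that library, called normalized counts here. The authors' fold changes and p-values were not used, nor was their annotation of custom features.

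The nonunique all table was used. Both HTSeq tables gave whole reads for 100% of the values above 0 (tolerance 0.01). A count of 0 allows up to 3 reads, which covers counting error only. PWS and control lines were compared on the log2(normalized count + 1) scale with limma 3.58.1 (trend, R 4.3.3) over every gene averaging 5 or more, with Benjamini-Hochberg adjustment over all tested genes and a threshold of 0.05. edgeR 4.0.16 and DESeq2 1.42.0 were run on the recovered reads. The share of unique reads is nonunique none reads over nonunique all reads. Fold changes understate those of low genes.

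Full statistics were kept for the 5 members at each end of the log2 fold changes, any member past the adjusted threshold in limma, edgeR or DESeq2 (none), and both genes of a pair whose ratio did not overlap. Of the other transport genes, up to 5 at each end with an unadjusted p-value under 0.05 and groups apart were named. Creb3l2 and the remaining members were described after their values were seen. The members and lists were chosen with earlier results of these data known, and the motifs and the comparison of line 3 with line 19 after values were seen. Tests were checked on simulated counts. No pair of lines in a group agreed within sampling noise. Positions on the build of the counts were not analysed here.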

Additional observations from a re-analysis of the deposited data

How the results depend on the processing

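No member passed an adjusted p-value of 0.05 under any of the 18 other settings or at a threshold of 0.1 in limma. The lowest adjusted p of a member ran from 0.0873 (Sec24a, DESeq2) to 0.603 (Sec24a in limma, without line 19-1). Between 28 and 33 of the 39 members were lower on average, and their median stayed negative. The 16 named genes other than Kdelr2 kept their direction in every setting run for them (Tmed6 is below the minimum of 50). Kdelr2 ran from -0.0950 to 0.0364 with each line left out. The count of all genes called was 9 with a mean of at least 50, 16 with nonunique none counting, 12 with RSEM and 228 with DESeq2, against 40, and 33 to 55 with a line left out. Members with an unadjusted p under 0.05 numbered 3 without trend, 2 with lines 19-1 and 19-4 averaged, and 1 to 9 with a line left out, and 3 with the replicate number as a block, against 5. In the other transport genes this count was 2 to 11 with a line left out, against 6: 2 without control line 5-9, 3 without PWS line 19-1 and 11 without PWS line 3. The replicate numbers do not pair the lines: deviations of same-numbered lines had correlations of 0.00345, 0.0467 and 0.00513, and the block changed no adjusted call of a member. Ratios near 0 changed sign. Under RSEM, Copg1 to Copg2 was -0.0179 and Lman1 to Mcfd2 was -0.0158 (log2, PWS minus control). With a line left out, Sec23a to Sec23b ran from -0.0163 to 0.102, Sec24c to Sec24d from -0.0426 to 0.0578, Copg1 to Copg2 from -0.0550 to 0.10 and Kdelr1 to Kdelr2 from -0.0294 to 0.0907. The cause of these changes was not tested. The number of lines limits the precision of every value.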
